A study of Mus musculus with 22 samples.

Results

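The genes described here are 10 members of the Notch pathway and of the families of transcriptional regulators it meets in glia: the receptors *Notch1* and *Notch2*, the ligand *Jag1*, the HES and HEY factors *Hes1*, *Hes5* and *Hey1*, and the inhibitors of differentiation *Id1*, *Id2*, *Id3* and *Id4*. They were taken by symbol, as a list of 10, from the 23453 symbols of the count matrix. RNA was measured in 22 single astrocytes cultured from the cortex of newborn C57BL/6 pups with no transgene or deletion named, each picked after its calcium response to EtOH had been classified by imaging. There were 6 S-type cells (a sustained response), 6 T-type cells (a transient response), 5 M-type cells (a mixture of the other patterns) and 5 NR cells (exposed to EtOH without a calcium response). All 4 groups were thus exposed to EtOH, and no unexposed cell is among the samples. The cultures had been shaken and treated with cytosine arabinoside to remove other cells, and serum was withdrawn the day before imaging. The labels do not tie a cell to an animal, a culture or a collection time, so each response type counts as 1 sample, cells are described one by one, and no test between types was run.

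Notch receptors are held at the plasma membrane and are cut, after a ligand on a neighboring cell binds, by an ADAM protease and then by gamma-secretase. The freed intracellular domain enters the nucleus and joins the DNA-binding protein RBPJ, which turns on genes of the HES and HEY families, and these repress proneural genes. ID proteins are helix-loop-helix proteins without a DNA-binding region that hold E proteins away from their targets, and BMP ligands induce their genes through SMAD proteins. In the developing cortex both pathways are known for favoring astrocytes over neurons and oligodendrocytes.

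Of the 10 genes, 7 had an entry among the RefSeq promoter windows (250 bases before to 50 bases after the annotated start, GRCm38.p6): *Notch1*, *Notch2*, *Jag1*, *Hes5*, *Id2*, *Id3* and *Id4*. The windows were searched on both strands for TGGGAA, the core of the site that RBPJ binds. It was found in the windows of *Hes5* and *Id4*, and 25.6% of all 32851 windows held it. The 250 bases before the start of both genes are shown for this reason, with the core in capitals, written as TTCCCA where it lies on the other strand. *Hes5* (chr4:154960673-154960922, plus strand) has the core on the plus strand from position -82 and on the minus strand from position -226, counted from the start, and *Id4* (chr13:48260866-48261115, plus strand) has it on the minus strand from position -245.
Hes5: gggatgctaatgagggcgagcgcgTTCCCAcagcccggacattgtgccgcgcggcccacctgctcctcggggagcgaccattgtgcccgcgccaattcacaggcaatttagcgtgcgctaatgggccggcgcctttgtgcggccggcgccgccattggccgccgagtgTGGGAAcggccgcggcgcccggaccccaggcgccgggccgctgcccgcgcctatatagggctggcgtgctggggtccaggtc
Id4: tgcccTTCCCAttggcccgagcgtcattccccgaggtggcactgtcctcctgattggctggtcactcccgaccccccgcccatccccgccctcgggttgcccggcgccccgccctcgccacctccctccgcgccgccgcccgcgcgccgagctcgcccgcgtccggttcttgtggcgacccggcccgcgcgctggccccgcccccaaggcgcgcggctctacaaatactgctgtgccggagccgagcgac
The match in *Hes5* and *Id4* is a description of letters. *Hes5*, with 2 positions, was the least read of the 10 genes (9 reads), and *Id4*, with 1, had 103759 reads. The GC-rich letters GGCGCC, to which SMAD proteins can bind, were present at 4 positions in the *Hes5* window and at 1 position each in the *Id2* and *Id4* windows, against 11.9% of all windows with at least 1. The shorter SMAD letters GTCT were found at 3 positions in *Id3* and at 1 each in *Notch1*, *Jag1* and *Id2* (88% of all windows). The E box CANNTG was found at 1 position each in *Jag1*, *Hes5* and *Id2* (72.3% of all windows). The N box CACNAG, a site of HES factors, was found at 3 positions in *Notch1* and at 1 each in *Notch2*, *Id2* and *Id4* (42.5% of all windows). The *Notch1* positions from -3 and from -1 overlap each other.

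A cell had between 2937786 and 22131076 reads, and T-type held the shallowest libraries. T-type cell 3 had the fewest reads and T-type cell 2 the fewest genes with a read (6319, against a median of 10852.5). All 12 astrocyte markers were read in every type, with a summed level of 56142 to 604607 normalized counts per cell. Vim had the highest mean level of them (123721). In T-type versus NR, 3 of the 12 were at least 2-fold higher and 4 at least 2-fold lower, beside 28.4% and 32.8% of all genes. Slc1a2 (log2 ratio of type means -5.11), S100b (-5.12), Gfap (-3.59) and Aldoc (-2.21) were lower, and Sox9 (2.06), Vim (1.30) and Glul (1.125) higher. Of the 8 microglia markers, 7 were read in NR (sum per cell 0.719 to 448), 7 in T-type (0 to 104), 6 in M-type (0.432 to 7.51) and 3 in S-type (0 to 3.05). The endothelial markers Cldn5 and Cdh5, the pericyte marker Rgs5 and the oligodendrocyte lineage marker Sox10 had no read in any cell. Reads of S phase and G2/M genes made up 2.43% of S-type cell 1, 1.85% of S-type cell 2 and 1.22% of T-type cell 5, and at most 0.395% of any other cell. The part of depth, of microglia transcripts and of these cell cycle reads in the values below was not tested beyond the settings named with them.

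Values are counts divided by a size factor of the cell (normalized counts), and the level of a type is the mean over its cells. Of the 10 genes, 9 had a read in at least 5 cells, and 6 of them were read in all 22. Scaled by exon length, *Id3* stood first, with 5835 normalized counts per kb over all cells, and it had the highest length-scaled level of the 10 genes in 20 of 22 cells. *Id2* (1893 per kb), *Id1* (1474), *Hey1* (1123) and *Id4* (902) followed. *Hes1* stood at 434 per kb, *Jag1* at 186.7, *Notch2* at 153.4 and *Notch1* at 58.9. On this scale the ID factors and *Hey1* were thus above *Hes1*, the ligand and the receptors. The exceptions to *Id3* were S-type cell 6, led by *Hey1*, and M-type cell 2, led by *Id4*. Reads are taken as even along the transcript, which was not tested, and the paper names shortening and end bias as effects of RNA amplification. With the longest transcript in place of all exons *Id3* had 8177 per kb and *Notch1* 88.4. Without scaling by length, *Notch2* (mean level 1654) and *Jag1* (1088) were above *Hes1* (884), and *Notch1* (839) was below it. The ID factors and *Hey1* were still first, though *Id1* (1709) was close to *Notch2*.

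**Figure D1:**
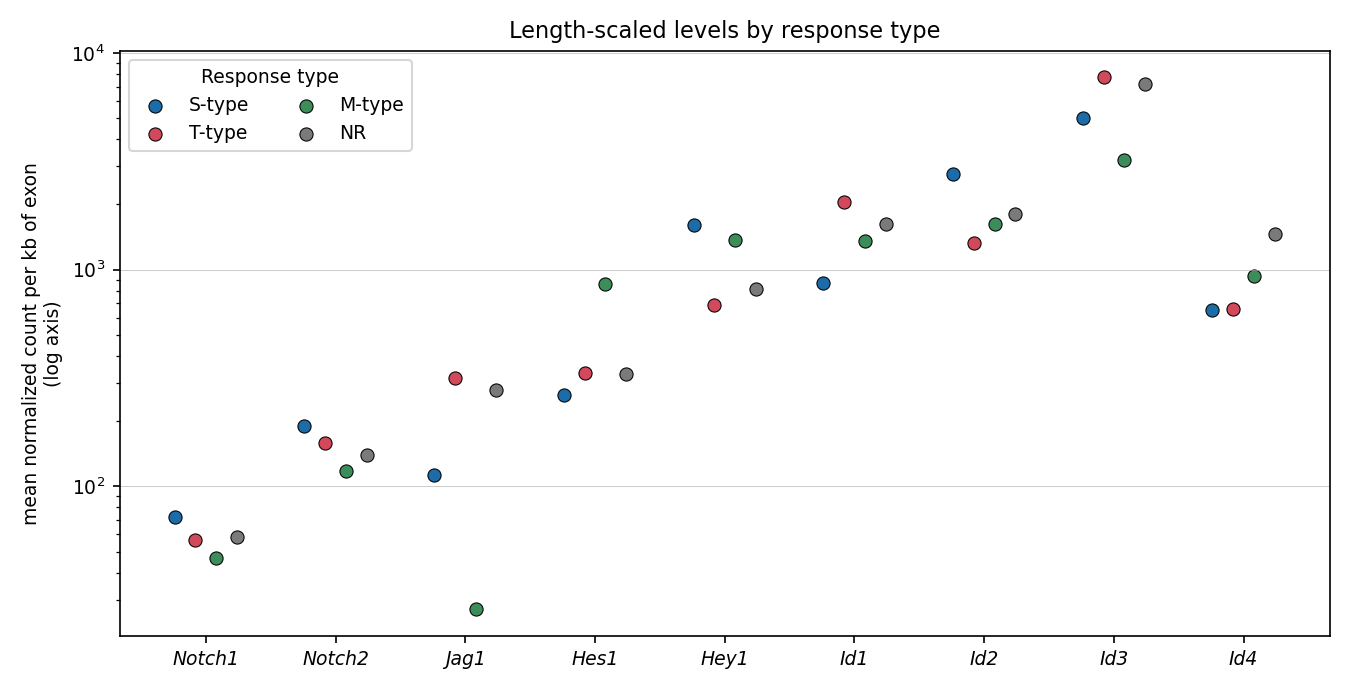
Mean normalized count per kb of exon (log axis) of 9 genes, with 1 point per response type. *Id3* is the highest gene in each type (3224 in M-type to 7723 in T-type), and *Jag1* has the widest spread between types, from 27.2 in M-type to 317 in T-type. *Hes5*, with 9 reads in all, is left out.

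Among the 9 genes that passed the filter on reads, cells varied least in *Id3*, *Id1* and *Id4* and most in *Jag1*. The coefficient of variation (SD over mean) across 22 cells was 0.555 for *Id3*, 0.645 for *Id1* and 0.687 for *Id4*, against 1.69 for *Jag1*. Among the genes within 2-fold of the same mean level, 11.5% varied less than *Id3* and 7.49% less than *Id1*, whereas 82.1% varied less than *Jag1*. The lowest and highest cell differed by 3.49 on the log2 scale for *Id3* and by 8.64 for *Hes1*.

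**Figure D2:**
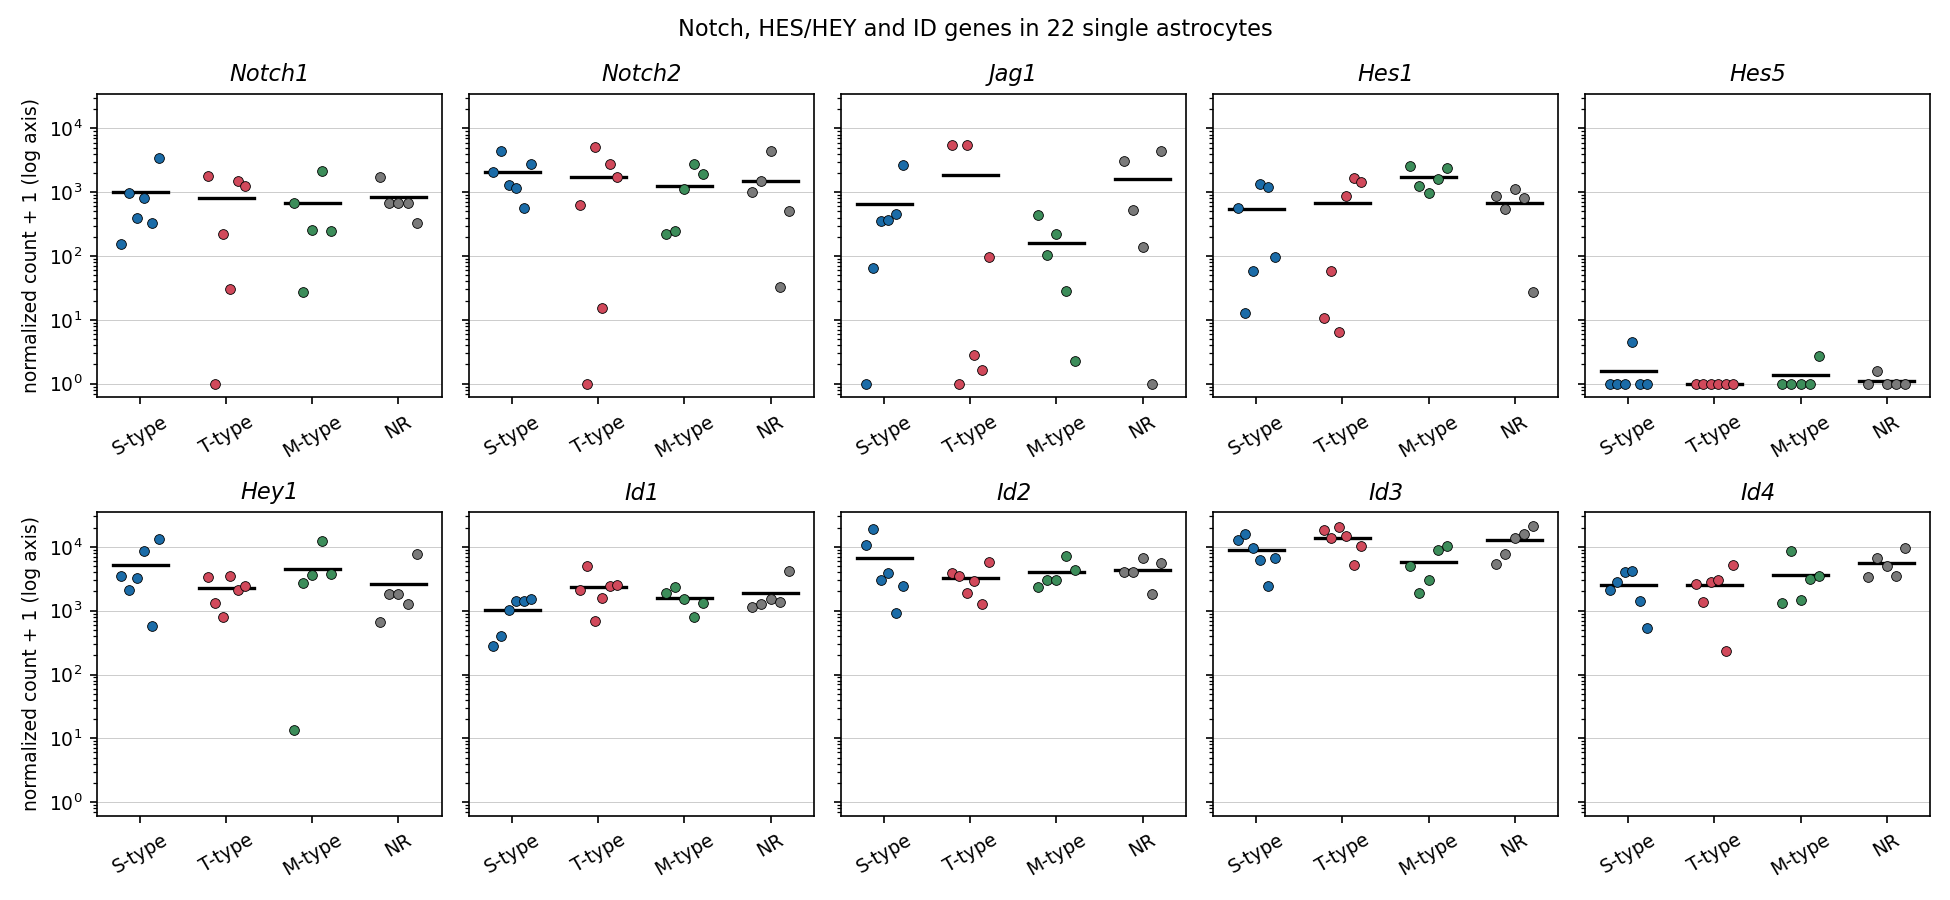
Normalized count plus 1 (log axis) of the 10 genes in each of 22 cells, by response type, with the type mean as a black line. All 5 M-type cells lie at or above 969 for *Hes1*, 7 cells of the other types lie below 100, and the ID factors span a narrower range than *Jag1* and the receptors.

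Between types, a level at least 2-fold apart was common among all genes, and less common among the 9 members in each comparison. The members are few, so nothing particular to them is read from these counts. In T-type versus S-type, 2 of 9 members were at least 2-fold higher (*Jag1* and *Id1*) and 2 at least 2-fold lower (*Hey1* and *Id2*), where 25.7% of all 12517 genes compared were higher and 32.5% lower. In T-type versus NR, none was higher and *Id4* was lower, beside 28.4% and 32.8% of all genes. In S-type versus NR, none was higher and *Jag1* and *Id4* were lower (25.1% and 22.5% of all genes). These shares of the members are near or below the shares of all genes. In M-type versus NR, *Hes1* was higher and *Jag1* and *Id3* were lower (19.8% and 28.1% of all genes). In T-type versus M-type, *Jag1* and *Id3* were higher and *Hes1* was lower (30.1% and 27.7%). In S-type versus M-type, *Jag1* was higher and *Hes1* was lower (28.1% and 17%). The cells of both types did not overlap for 0 members in each of the 6 comparisons, where this held for 0.783%, 1.01%, 0.412%, 0.602%, 0.753% and 0.469% of all genes in the order above.

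The median log2 ratio of the 9 members was 0.01 in T-type versus S-type, 0.01 in T-type versus NR, -0.32 in S-type versus NR and -0.26 in M-type versus NR. It was 0.27 in T-type versus M-type and 0.61 in S-type versus M-type. The medians over all genes were -0.09, -0.07, 0.03, -0.20, 0.15 and 0.21 in the same order. Comparisons that share a type share its cells, so the 15 ratios past 2-fold are not separate observations. Of these 15, 6 were past 2-fold without any 1 cell (*Hes1* in 3 comparisons, *Jag1* in 2 and *Id3* in 1) and 9 were not.

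**Figure D3:**
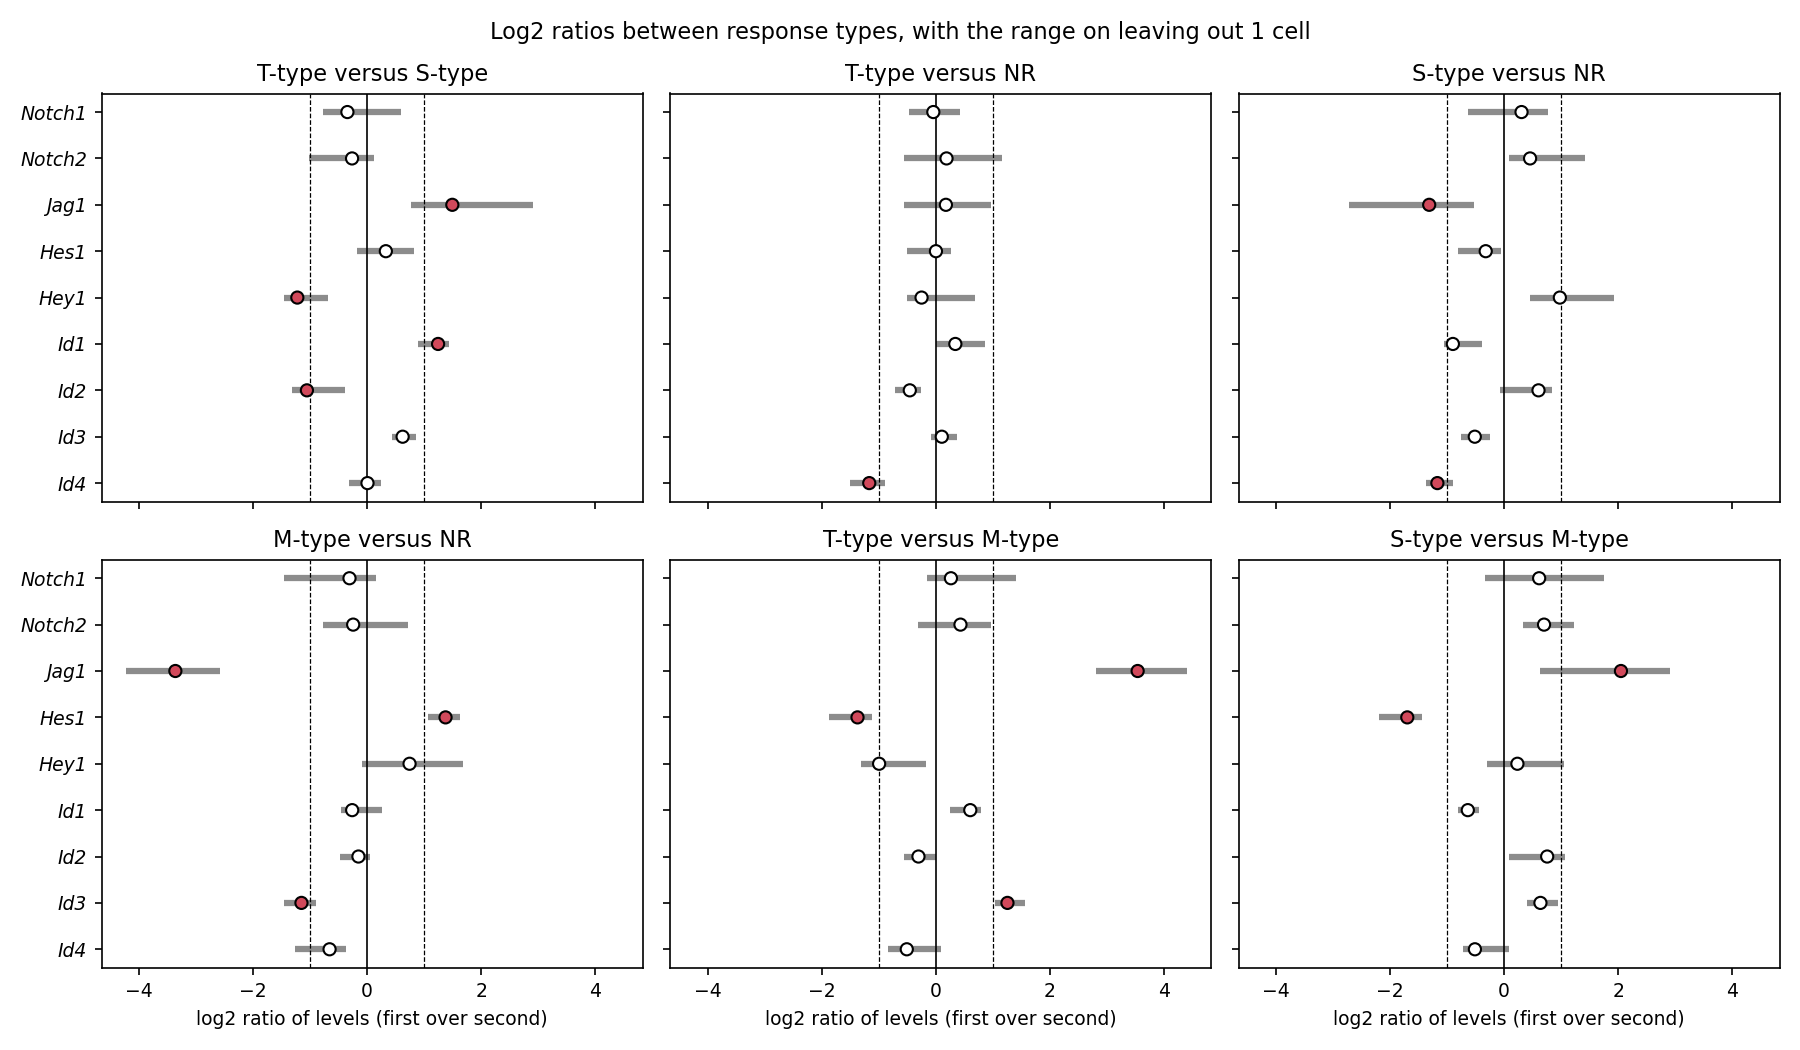
Log2 ratio of type levels (first type over second) of 9 genes in 6 comparisons, as points in red where at least 2-fold, with the range over leaving out each cell in turn as a grey bar and the 2-fold limits dashed. The 3 ratios of *Jag1* that involve M-type (3.54, -3.36 and 2.05) lie farthest from 0, followed by *Hes1* in S-type versus M-type (-1.70).

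The receptors *Notch1* (ENSMUSG00000026923, chr2:26457903-26516663, minus strand, GRCm38) and *Notch2* (chr3:98013527-98150361, plus strand) differed less than 2-fold in each comparison. *Notch1* ran from 153.6 to 3476 normalized counts in S-type with a median of 607, and from 0 to 1821 in T-type with a median of 729. The M-type cells had 686, 25.9, 255, 2132 and 242, and the NR cells 1747, 686, 688, 685 and 334. No type was apart from another, and the mean was 1023 ± 1241 (SD, n = 6 cells) in S-type and 668 ± 853 (n = 5) in M-type. A single cell held much of some means: S-type cell 6 gave 56.6% of the S-type level and M-type cell 4 gave 63.8% of the M-type level. Without M-type cell 4 the log2 ratio of M-type versus NR moved from -0.31 to -1.45, that of T-type versus M-type from 0.27 to 1.41, and that of S-type versus M-type from 0.61 to 1.76.

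*Notch2* ran from 565 to 4410 in S-type with a median of 1687.5, and from 0 to 5182 in T-type with a median of 1171.5. It had 218, 249, 1125, 2815 and 1913 in the M-type cells and 1002, 1520, 4420, 31.1 and 515 in the NR cells. All types overlapped, and T-type cell 2, the cell with the fewest genes, had no read of *Notch1*, *Notch2* or *Jag1*. Per kb of exon, *Notch2* was above *Notch1* in 16 cells and below it in 5. The ratio of T-type versus S-type was -0.26 and reached -1.02 without T-type cell 3. Without NR cell 3, T-type versus NR moved from 0.19 to 1.16 and S-type versus NR from 0.46 to 1.42, and without M-type cell 4 S-type versus M-type moved from 0.70 to 1.23. Transcripts annotated on the other strand of *Notch1* and on the same strand of *Notch2* were not listed in the matrix, and the strand setting of the counting was not given in the sources used here.

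*Jag1* (chr2:137081456-137116644, minus strand), a membrane-bound ligand of Notch receptors, was high in a few cells of 3 types and low in every M-type cell. It was read in 19 of 22 cells. The T-type cells had 5515, 0, 5460, 1.82, 0.648 and 94.2, with T-type cells 1 and 3 as the high ones. In S-type it ran from 0 to 2698 with a median of 359, and the NR cells had 3119, 520, 137, 0 and 4366. The M-type cells had 442, 102, 218, 27.5 and 1.30, and 7 cells of the other types were above the highest of them. The types overlapped, as low cells were found in all 4.

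As type levels, *Jag1* stood at 1845 ± 2822 in T-type (n = 6), 1628 ± 1989 in NR (n = 5), 655 ± 1017 in S-type (n = 6) and 158 ± 180 in M-type (n = 5), and no neighbors in this order differed by more than the larger SD. The level of M-type was 10.3-fold lower than that of NR (log2 ratio -3.36, 95% interval -3.45 to -3.28). It was 11.7-fold lower than that of T-type (T-type versus M-type, log2 ratio 3.54). Leaving out 1 cell gave -4.22 to -2.58 for the former and 2.81 to 4.4 for the latter. The M-type cell was the higher in 7 of 25 pairs with NR, and the T-type cell in only 13 of 30 pairs with M-type. Intervals here and below cover only the binomial split of the pooled reads, not the spread between cells. With the median over cells of log2(normalized count + 1) in place of the mean level (the median over cells below), T-type versus M-type reversed to -2.64. The medians of the normalized counts themselves were 48.0 in T-type and 102 in M-type. S-type versus M-type was 2.05, and 0.64 without S-type cell 6. T-type versus S-type was 1.49, 0.76 without T-type cell 1 and 0.78 without T-type cell 3, and -4.46 with the median over cells. In that comparison the T-type cell was the higher in 16 of 36 pairs. S-type versus NR was -1.31, -0.53 without NR cell 5 and -0.94 without NR cell 1.

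*Hes1* (chr16:30064384-30067796, plus strand), a repressor induced by Notch and known to oscillate in neural progenitors, was present at a high level in all M-type cells. These had 2567, 1230, 969, 1615 and 2385 normalized counts. The NR cells had 878, 535, 1120, 819 and 26.0. In S-type it ran from 11.9 to 1319 with a median of 330, and in T-type from 5.45 to 1677 with a median of 465. The cells of S-type and T-type fell into low and high values, with 3 of 6 below 100 in both types, and 1 of 5 in NR and 0 of 5 in M-type. The lowest cell at or above 100 had 535, so no cell lay between 94.99 and 535. Of the 17 cells outside M-type, 5 were above the lowest M-type cell.

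The *Hes1* level was 1753 ± 702 in M-type, 678 ± 763 in T-type, 676 ± 419 in NR and 540 ± 591 in S-type (SD over 5, 6, 5 and 6 cells). The step from M-type to T-type (1075) was larger than the larger SD of both, the only such step among the 27 neighbors in the orders of the 9 genes. The level in M-type was 2.59-fold that of NR (log2 ratio 1.38, 95% interval 1.33 to 1.42), and the M-type cell was the higher in 24 of 25 pairs of cells. T-type versus M-type was -1.37 and S-type versus M-type -1.70. Leaving out 1 cell gave 1.06 to 1.64, -1.87 to -1.11 and -2.19 to -1.44, all past 2-fold. Size factors moved with this: they ran from 1.43 to 2.31 in M-type, from 1.08 to 1.76 in NR and down to 0.183 in T-type, and Spearman's rho between *Hes1* and the size factor was 0.57 over 22 cells. With all cells thinned to the smallest library the ratios were 1.33, -1.45 and -1.77. Under the median over cells M-type versus NR was 0.98, and without the T-type cells 2 and 3 T-type versus M-type was -0.81, both under 2-fold.

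*Hes5*, a Notch target of neural progenitors, had 9 reads in all, 4 in S-type cell 4, 4 in M-type cell 5 and 1 in NR cell 2. None of the 6 T-type cells had a read. The floor of T-type, a fixed number of reads divided by its summed size factors, was 0.622. It is not an upper limit of the level, which is a mean over cells. It did not pass the filter on reads, and no fold is given. The same 22 cells held 31147 reads of *Hes1*.

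*Hey1* (chr3:8663359-8667256, minus strand), a repressor of the HEY family, had the most reads of the 3 HES and HEY members, 112943. In S-type it ran from 579 to 13344 with a median of 3370, and in T-type from 796 to 3510 with a median of 2271. The M-type cells had 12.5, 2736, 3605, 12258 and 3728, and the NR cells 661, 1794, 1802, 1285 and 7792. High single cells were found in S-type, M-type and NR, none in T-type, and M-type cell 1 was far below all other cells. Per kb, *Hey1* was above *Hes1* in 16 cells and below it in 6.

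The level was 5251 ± 4828 in S-type, 4468 ± 4605 in M-type, 2667 ± 2903 in NR and 2248 ± 1072 in T-type, with each step smaller than the larger SD. T-type was 2.34-fold lower than S-type (log2 ratio -1.22, 95% interval -1.25 to -1.19), but S-type cell 6 gave 42.4% of the S-type level and without it the ratio was -0.69. T-type versus M-type was -0.99 and S-type versus NR 0.98, both next to the limit, and leaving out single cells took them past it, to -1.31 without M-type cell 1 and to 1.92 without NR cell 5. With TMM factors T-type versus M-type was -1.04 and on the mean CPM -1.51. Without M-type cell 4 it was -0.17 and S-type versus M-type moved from 0.23 to 1.06. M-type versus NR moved from 0.74 to 1.69 without NR cell 5 and to 1.07 without M-type cell 1.

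*Id1* (chr2:152736251-152737410, plus strand), a BMP-induced ID factor, was higher in most T-type than S-type cells. It ran from 693 to 4943 in T-type with a median of 2276 and from 274 to 1534 in S-type with a median of 1211. Of the 6 T-type cells, 5 lay above every S-type cell, the lowest of them at 1574, and the exception was T-type cell 3, the shallowest library. The M-type cells had 1876, 2351, 1514, 782 and 1313, and the NR cells 1127, 1281, 1499, 1351 and 4138. Both overlapped T-type and S-type, and NR cell 5 stood above the other 4 NR cells.

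The *Id1* level was 2388 ± 1428 in T-type, 1879 ± 1270 in NR, 1567 ± 590 in M-type and 1008 ± 548 in S-type. T-type was 2.37-fold higher than S-type (log2 ratio 1.24, 95% interval 1.20 to 1.29), and the T-type cell was the higher in 32 of 36 pairs. Without T-type cell 2 the ratio was 0.90. On CPM (reads scaled to the same total) averaged over cells the ratio was 0.54, where the median of all genes was -0.46, against -0.09 with size factors. S-type cells 1 and 2, with the most cell cycle reads, had the lowest *Id1* of all 22 cells (274 and 404), and without them T-type versus S-type was 0.83. S-type versus NR was -0.90 and lay between -1.06 and -0.38 on leaving out 1 cell.

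*Id2* (chr12:25093799-25097140, minus strand), a further ID factor, was highest in the S-type cells rich in cell cycle reads. S-type cell 2 had 19137 and S-type cell 1 had 10734, the highest values of all 22 cells. The other 4 S-type cells ran from 934 to 3940 and overlapped T-type (1287 to 5869, median 3196). The M-type cells had 2320, 3019, 3042, 7100 and 4386, and the NR cells 4002, 4073, 6690, 1816 and 5495. T-type cell 5, with 1.22% cell cycle reads, had 1287, the second lowest of all cells, and Spearman's rho between *Id2* and the share of these reads was -0.01 over 22 cells. The part of cell cycle reads in the *Id2* values was not tested beyond leaving out S-type cells 1 and 2.

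The *Id2* level was 6706 ± 6975 in S-type, 4415 ± 1829 in NR, 3974 ± 1901 in M-type and 3226 ± 1623 in T-type. T-type was 2.08-fold lower than S-type (log2 ratio -1.06). Without S-type cell 2 the ratio was -0.39, and without S-type cells 1 and 2 it reversed to 0.32. It was also under 2-fold without S-type cell 1 (-0.87), T-type cell 5 (-0.89) or T-type cell 3 (-0.94). S-type versus M-type moved from 0.76 to 1.07 without M-type cell 4.

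*Id3* (chr4:136143497-136145755, plus strand), a further BMP-induced ID factor, had the most reads of the 10 genes, 266108, and a higher level than 98.6% of the genes compared. It ran from 5161 to 20547 in T-type with a median of 14316 and from 2476 to 15857 in S-type with a median of 8221. The M-type cells had 4945, 1905, 3010, 8846 and 10168, and the NR cells 5348, 7836, 13791, 15787 and 21387. M-type held the lowest cell, and its highest cell was below 5 of 6 T-type cells and 3 of 5 NR cells. *Id3* made up 12.1% to 79.3% of the normalized counts of the ID factors in a cell, with a median of 50.2%.

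The *Id3* level was 13832 ± 5544 in T-type, 12830 ± 6399 in NR, 8981 ± 4842 in S-type and 5775 ± 3607 in M-type. M-type was 2.22-fold lower than NR (log2 ratio -1.15, 95% interval -1.17 to -1.14) and the M-type cell was the higher in 4 of 25 pairs. T-type was 2.40-fold higher than M-type (1.26) and higher in 28 of 30 pairs. T-type versus M-type was past 2-fold without any 1 cell (1.04 to 1.56), whereas M-type versus NR was -0.89 without NR cell 5, -0.93 without M-type cell 2 and -0.99 without M-type cell 3. The size factor moved against *Id3* (rho -0.52 over 22 cells), and on the mean CPM T-type versus M-type was 0.59, where the median of all genes was -0.33, and M-type versus NR was -0.92.

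*Id4* (chr13:48261228-48266026, plus strand), an ID factor known from neural stem cells, was highest in NR. The NR cells had 3419, 6612, 5057, 3516 and 9669. *Id4* ran from 539 to 4136 in S-type with a median of 2467.5 and from 229 to 5114 in T-type with a median of 2708, and the M-type cells had 1327.5, 8470, 1461, 3143 and 3512. Every NR cell was above 4 of the 6 S-type cells and 5 of the 6 T-type cells, and the exceptions overlapped the NR range.

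The *Id4* level was 5655 ± 2596 in NR, 3583 ± 2901 in M-type, 2523 ± 1649 in T-type and 2512 ± 1446 in S-type. T-type was 2.24-fold lower than NR (log2 ratio -1.16, 95% interval -1.19 to -1.14) and the T-type cell was the higher in 3 of 30 pairs. S-type was 2.25-fold lower than NR (-1.17), and the S-type cell was the higher in 4 of 30 pairs. Without NR cell 5 these ratios were -0.88 and -0.89, without T-type cell 5 the former was -0.92 and without S-type cell 6 the latter was -0.96. M-type versus NR moved from -0.66 to -1.26 without M-type cell 2. An antisense transcript that overlaps *Id4*, A330033J07Rik, had 280 reads, against 103759 of *Id4*.

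NR cell 5 was the highest or lowest cell of its type in several members. With size factors it had the highest *Jag1*, *Hey1*, *Id1*, *Id3* and *Id4* of the 5 NR cells and the lowest *Hes1* and *Notch1*. Its size factor was the lowest of NR (1.08). On CPM NR cell 4 was higher in *Id3* (1401.5, against 1305) and NR cell 2 in *Id4* (656, against 590), while the other places held.

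Relations between the members across the 22 cells depended on the scaling. Of the 36 pairs among 9 members, 20 had a Spearman's rho above 0 with size factors, with a median of 0.04, and 4 were at or past 0.40 in size. On CPM 25 were above 0, with a median of 0.15, and 6 were at or past 0.40, all of them positive. The cells share libraries and size factors, so these values are descriptions, without a test. With size factors *Hes1* and *Id3* had the largest rho in size, -0.66 (Pearson's r of log2 values -0.58, -0.48 without the 2 cells farthest from the median of *Hes1*). Leaving out 1 cell gave -0.71 to -0.61, and taking deviations from the type means gave -0.47. It was -0.56 in thinned cells and -0.25 on CPM. *Notch2* and *Id1* had a rho of -0.53 (-0.22 on CPM), *Id2* and *Id4* of 0.44 (0.56 on CPM, the highest there) and *Notch1* and *Notch2* of 0.41 (0.44 on CPM). On CPM *Hes1* and *Id1* had a rho of 0.52, against 0.18 with size factors, *Notch2* and *Id2* of 0.49 (0.38), and *Hey1* and *Id2* of 0.48 (0.35).

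*Jag1* and *Hes1*, ligand and target, were rarely high in the same cell. Of the 5 cells with *Jag1* above 2000, 4 had *Hes1* below 100 (T-type cells 1 and 3, S-type cell 6 and NR cell 5), and the exception was NR cell 1. Of the 15 cells with *Hes1* of at least 100, 1 had *Jag1* above 2000. The rho was -0.35, and the limits of 100 and 2000 were chosen after the values were seen. In the 7 cells low in *Hes1*, *Notch1* had a median of 392 and *Notch2* of 1318, within the range of the other 15 cells (medians of 686 and 1156), and *Hey1* had a median of 3262, against 2433 in the others. With size factors, *Id3* had a median of 15857 in these 7 cells and of 7836 in the other 15. This gap depends on the scaling: *Id3* moved against the size factor (rho -0.52). The rho of *Hes1* and *Id3* was -0.25 on CPM, against -0.66 with size factors.

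**Figure D4:**
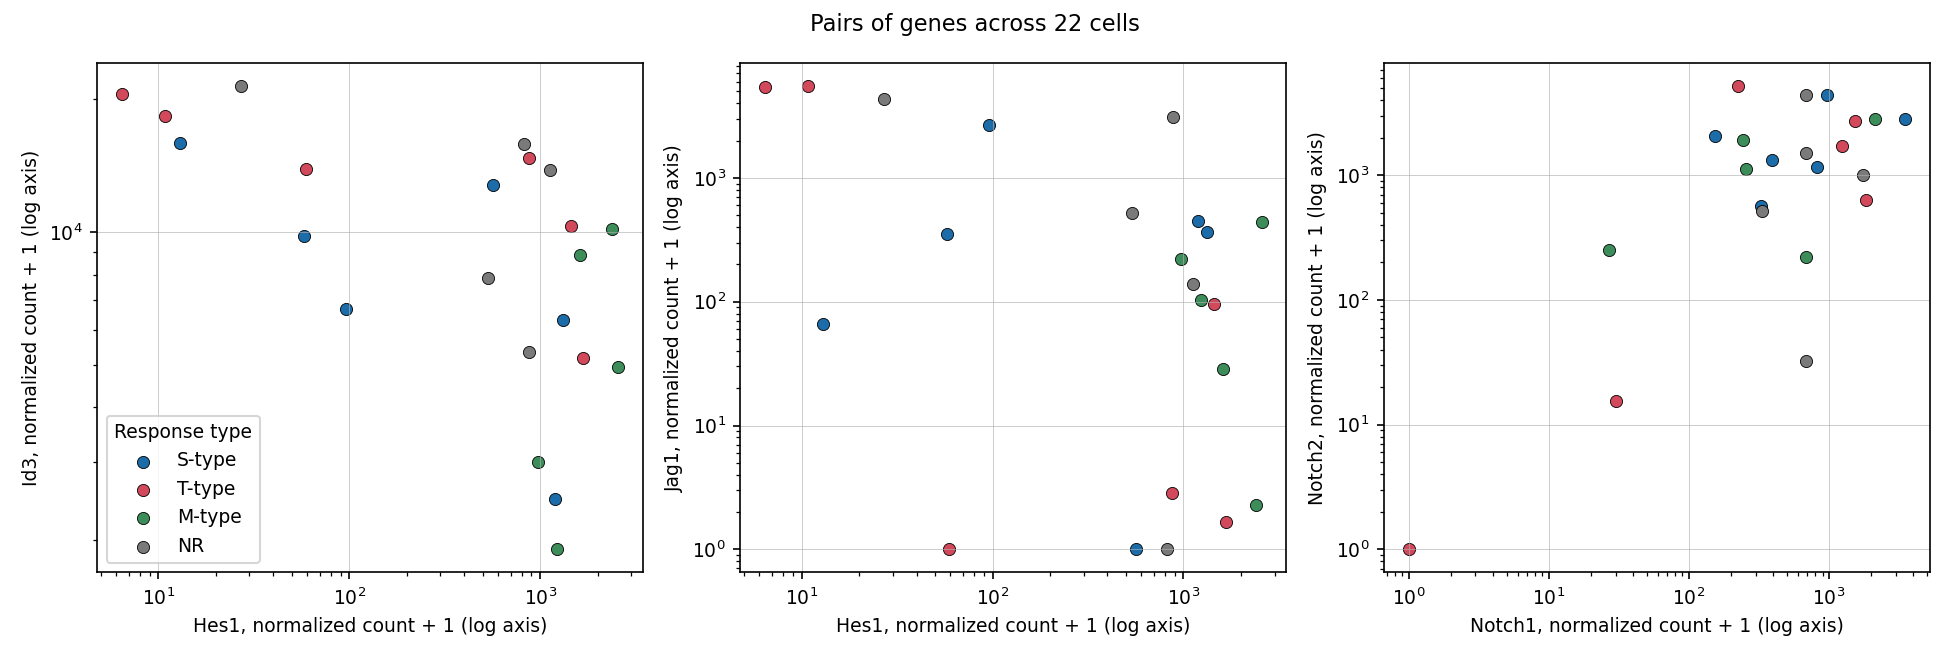
Normalized count plus 1 of *Id3* against *Hes1* (left), *Jag1* against *Hes1* (middle) and *Notch2* against *Notch1* (right), with 1 point per cell colored by response type and log axes throughout. Cells with *Hes1* below 100 have *Id3* between 6680 and 21387, and 4 of the 5 cells with *Jag1* above 2000 are among them. On CPM the rho of *Hes1* and *Id3* is -0.25, against -0.66 with the size factors used here.

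The genes whose pattern over the 22 cells was most like each member were sought among 10493 genes, and the best values lay between 0.739 and 0.834. They were Fam20c (rho 0.793) and Nsf (0.739) for *Notch1*, Sfrs18 (0.793) and Taf1c (0.789) for *Notch2*, and 2610507B11Rik (0.815) and Col4a6 (0.809) for *Jag1*. For *Hes1* they were Tm7sf3 (0.824) and Chmp2a (0.774), and for *Hey1* Nt5c3 (0.827) and Mrs2 (0.785). For the ID factors they were Eef1a1 (0.773) and Rhoa (0.765) for *Id1*, Fat3 (0.834) and Enpp4 (0.763) for *Id2*, Gnao1 (0.826) and Cebpd (0.792) for *Id3*, and Cds1 (0.771) and Stxbp6 (0.765) for *Id4*. Each is the highest of many values over few cells.

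Apart from Dner, which was uneven only in T-type, the other receptors and ligands were low or uneven. Notch3 had 2887 reads and Notch4 195, and Notch3 was 2.01-fold lower in T-type than S-type, with 98.0% of its T-type level in T-type cell 3 (log2 ratio -1.01, -6.40 without that cell and -0.34 without S-type cell 6). Of the other ligands, Dll1 had 63 reads, Jag2 and Dll3 had 1 each and Dll4 had 0. The noncanonical ligand Dner, known from neuron to glia contact, was read in all 22 cells, with levels of 4309 in T-type to 6329 in NR and no ratio past 2-fold. T-type cell 3 held 73.7% of the T-type level of Dner, and without it T-type was lower, with log2 ratios of -2.03 versus S-type, -2.22 versus NR and -2.03 versus M-type. Dlk1 and Dlk2, noncanonical membrane proteins of the same family, were low in M-type like *Jag1*: the level of Dlk1 was 15.6 in M-type and 102 to 108 in the other types. Dlk2 ran from 0 to 40.6 in M-type and from 43.8 to 184 in S-type, the only gene of the ligand list whose cells did not overlap in a comparison, and its T-type level came from T-type cell 4 alone. Of the ligands compared, *Jag1* included, 1 was higher and 1 lower of 5 in T-type versus S-type, 1 and 0 of 4 in T-type versus NR, 2 and 1 of 5 in S-type versus NR, 0 and 3 of 4 in M-type versus NR, 3 and 0 of 4 in T-type versus M-type, and 4 and 0 of 5 in S-type versus M-type. The shares of all genes higher and lower, against which this and the following lists are read, were 25.7% and 32.5%, 28.4% and 32.8%, 25.1% and 22.5%, 19.8% and 28.1%, 30.1% and 27.7%, and 28.1% and 17% in the same order.

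The genes that process and carry the signal differed in both directions. Of 14 processing and glycosylation genes compared, 5 were higher and 4 lower in T-type versus S-type, 5 and 1 in T-type versus NR, 3 and 3 in S-type versus NR, 3 and 4 in M-type versus NR, 4 and 3 in T-type versus M-type, and 4 and 3 in S-type versus M-type. Adam17, a protease that can cut Notch receptors, had a level of 1321 for S-type, 700 for NR, 425 for T-type and 213 for M-type, and T-type versus S-type was -1.64 (-0.92 without S-type cell 2). Aph1a, a gamma-secretase subunit, had 758 in T-type and 145 in S-type, with a log2 ratio of 2.39 that was 1.01 without T-type cell 3. Rbpj itself was read in all 22 cells and was 2.00-fold lower in T-type (871 ± 1535) than NR (1744 ± 1050), with 75.2% of the T-type level in T-type cell 1. Its log2 ratio was -2.75 without that cell and -0.66 without NR cell 2. Of 16 genes of the RBPJ complex and its corepressors, 2 were higher and 5 lower in T-type versus S-type, 1 and 4 in T-type versus NR, 2 and 2 in S-type versus NR, 0 and 3 in M-type versus NR, 4 and 4 in T-type versus M-type, and 3 and 2 in S-type versus M-type. The corepressor Ncor1 was higher in T-type (9548) than S-type (3309), where T-type cell 1 held 36671 and without it the log2 ratio was 0.32.

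Among the 13 genes of Notch trafficking and turnover compared, 3 were higher and 6 lower in T-type versus S-type, 4 and 6 in T-type versus NR, 4 and 2 in S-type versus NR, 5 and 3 in M-type versus NR, 4 and 6 in T-type versus M-type, and 3 and 3 in S-type versus M-type. Of all genes 25.7% were higher and 32.5% lower in T-type versus S-type, and nothing particular to the list is read from its counts. Numb, which restrains Notch at the membrane, had a level of 787 in T-type, 518 in M-type, 306 in S-type and 235 in NR, and T-type versus S-type was 1.37 (0.77 without T-type cell 3). Nrarp, a direct Notch target that dampens the pathway, had 4244 reads, of which most came from S-type cell 2: it held 91.2% of the S-type level of 711, and the other types had levels of 0.919 to 5.74. Dtx4, an E3 ligase of the deltex family, had 216 in T-type and 613 to 686 in the other types.

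Of the 10 HES and HEY genes, 4 passed the filter on reads (*Hes1*, *Hey1*, Hes6 and Hey2). Hes6, which opposes *Hes1*, had a level of 7827 in T-type and 221 to 290 in the other types, but T-type cell 2 held 45565, 97.0% of the T-type level. Without that cell T-type versus S-type moved from 4.75 to -0.05. Hey2 was uneven too: its M-type level of 338 came to 83.6% from M-type cell 2, and 5 of 6 S-type cells had no read. Hes2 and Hes3 had 0 reads. Of the 4 genes compared, 2 were higher and 1 lower in T-type versus S-type, 1 and 1 in T-type versus NR, 0 and 1 in S-type versus NR, 2 and 0 in M-type versus NR, 1 and 2 in T-type versus M-type, and 0 and 2 in S-type versus M-type, with the members *Hes1* and *Hey1* counted among them.

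Of the E proteins, the partners of the ID factors, Tcf4 had levels of 5651 (M-type) to 9505 (NR) and no ratio past 2-fold, though without M-type cell 4 M-type versus NR was -1.06 and T-type versus M-type 1.02. Tcf12 was lower in T-type (695 ± 1087) than S-type (3570 ± 3417), with a log2 ratio of -2.36 that ran from -3.68 to -1.70 on leaving out 1 cell. Tcf3 did not overlap between S-type (4.38 to 52.4) and NR (66.9 to 288), at a log2 ratio of -2.60. Of the 3 E proteins, 1 was higher and 1 lower in T-type versus S-type, and 0 were higher and 1 lower in each of the other 5 comparisons. Olig1, a helix-loop-helix factor of the oligodendrocyte lineage, had a level of 16819 in T-type, against 4126 in NR, 5492 in S-type and 8352 in M-type. T-type cell 3 held 50.8% of the T-type level of Olig1. Without that cell T-type versus NR moved from 2.03 to 1.27. T-type versus S-type moved from 1.61 to 0.85 and T-type versus M-type from 1.01 to 0.25, both under 2-fold. The proneural genes Neurog1 and Neurog2 had 0 reads.

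**Figure D5:**
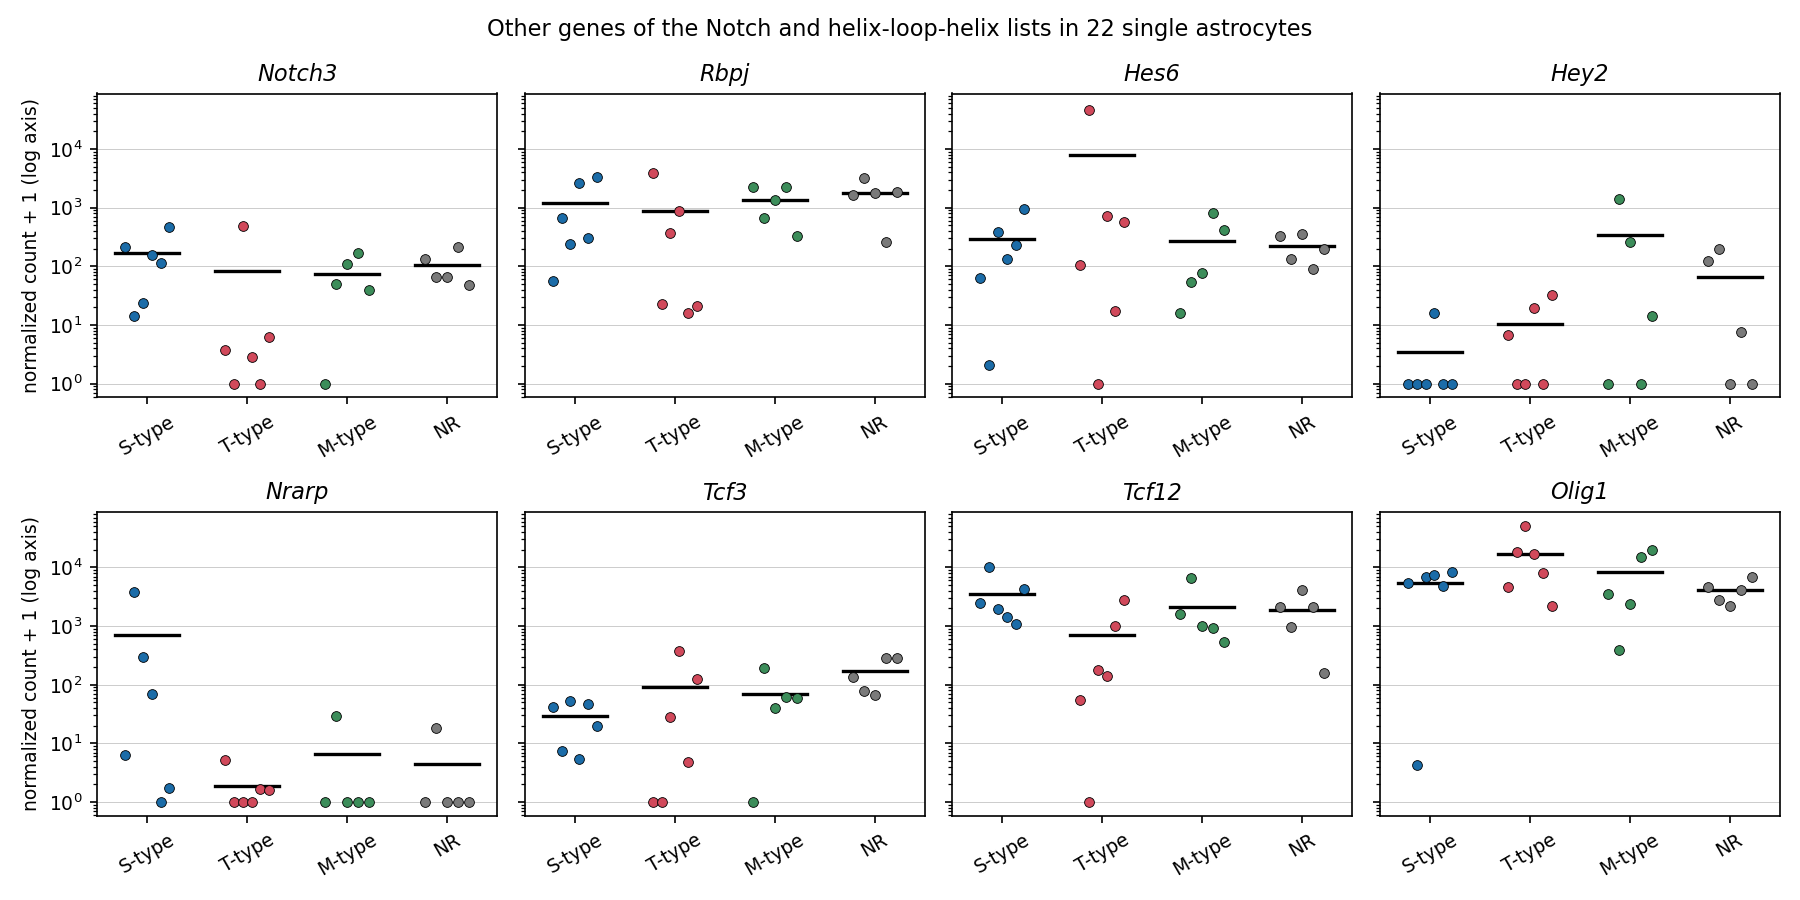
Normalized count plus 1 (log axis) of 8 further genes of the Notch and helix-loop-helix lists in each of 22 cells, by response type, with the type mean as a black line. Hes6 in T-type and Nrarp in S-type are set by 1 cell each (45565 and 3893), and Tcf3 is lower in all 6 S-type cells than in all 5 NR cells.

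Of the BMP genes, the receptors Bmpr2 and Bmpr1a were the most read, with 180162 and 145235 reads. Among the ligands Bmp6 had the most reads, 1634 in 19 cells, and Bmp2, Bmp4, Bmp5 and Bmp7 had 54 to 537 each, while the receptors Acvr2b, Acvrl1 and Eng had 24 to 106. The level of Bmp6 was 108 in NR, 81.9 in M-type, 16.9 in T-type and 12.5 in S-type. Its log2 ratio was -2.68 in T-type versus NR (0.12 without NR cell 5, -5.90 without T-type cell 6) and -2.71 in S-type versus M-type (-1.85 without M-type cell 1). Bmpr1a was higher in NR (8024 ± 6519) than S-type (3671 ± 2350), with a log2 ratio of -1.13 for S-type versus NR that was -0.56 without NR cell 5. Of 8 genes of this list compared, 2 were higher and 1 lower in T-type versus S-type, 2 and 2 in T-type versus NR, 3 and 3 in S-type versus NR, 0 and 1 in M-type versus NR, 2 and 3 in T-type versus M-type, and 2 and 1 in S-type versus M-type. Of the 12 SMAD genes and BMP antagonists, 5 were higher and 4 lower in T-type versus S-type, 4 and 5 in T-type versus NR, 1 and 2 in S-type versus NR, 1 and 2 in M-type versus NR, 2 and 3 in T-type versus M-type, and 2 and 2 in S-type versus M-type. Smurf2, a ligase that limits SMAD signals, was higher than NR in the 3 responding types, with log2 ratios of 2.00 in T-type, 1.44 in S-type and 1.38 in M-type, where the comparisons share the NR cells. T-type cell 1 held 57.6% of the T-type level, and without it the ratio was 1.02. Bambi, a decoy receptor, was lower in T-type (410 ± 316) and S-type (627 ± 443) than in M-type (1532 ± 1773) and NR (1658 ± 1842), whose means came to 60.8% and 57.7% from single cells. T-type versus M-type moved from -1.90 to -0.87 and S-type versus M-type from -1.29 to -0.26 without M-type cell 1. S-type versus NR moved from -1.40 to -0.49 and T-type versus NR from -2.02 to -1.10 without NR cell 5.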

How the data were processed

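RNA of 22 single astrocytes was amplified as antisense RNA in 2 rounds and sequenced as paired reads from stranded libraries. After trimming, the authors used STAR for alignment to GRCm38 and VERSE, a form of HTSeq, for counting unique exonic alignments, and the deposited values are raw counts per gene and cell. The versions, the annotation release and the strand setting are not given in the sources used here. There were no molecular identifiers, so counts are amplified reads.

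Each count was scaled by a size factor (median of ratios over 3670 genes read in all cells) and averaged by type. The comparisons used the 12719 of 23453 genes that were read in 5 or more cells, and a ratio of at least 2-fold was counted. Where a type had no read, its floor of 3 reads, divided by its summed size factors, took the place of 0, and no fold was given with at most 3 reads in both types. Intervals of ratios (95%, exact binomial) come from the split of the pooled reads, moved onto the ratio of levels. They take amplified reads as independent and leave out the unequal weights of cells, so they do not give the full counting error. Neither intervals nor floors cover the spread between cells. The labels name no animal or culture, so each type counted as 1 sample and no p-value was computed. None of the 231 pairs of cells had identical counts. Exon lengths and positions came from GENCODE (GRCm38) and promoters from RefSeq. The genes, lists and limits were chosen with earlier results of these data known. Apart from the 10 genes, the text names genes of the lists that were past 2-fold with at least 1000 reads, at most the 3 with the most reads for each list and comparison. Dner, Tcf4, Bmpr2, the astrocyte markers named, and the genes named as having under 1000 reads were chosen after their values were seen. For each of the 9 genes compared, the 2 most alike by Spearman's rho were named. The alternatives were TMM factors (edgeR 4.0.16), CPM, thinning to 2937786 reads, a pseudocount of 1, the median over cells and leaving out each cell. For the median over cells, the medians of log2(normalized count + 1) of the 2 types were subtracted. Scripts used Python 3.11.15, NumPy 2.4.6, pandas 2.3.3 and SciPy 1.17.1. The ratio was tested on simulated data. Their spread between cells was smaller than that of the real genes (median coefficient of variation 1.48). The simulation thus checked the calculation and not how ratios hold at the real spread.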

Additional observations from a re-analysis of the deposited data

Results flagged for a closer look

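Within each type, the highest and lowest cell of each gene were compared with the gap to the nearest cell on the scale of log2(normalized count + 1). Without *Hes5*, 3 values stood apart in 36 such groups, where chance gives about 1 in 20. *Hes1* was 26.0 in NR cell 5, against 535 to 1120 in the other NR cells, and the same cell had the highest *Id1* of its type, 4138, against 1127 to 1499. *Hey1* was 12.5 in M-type cell 1, against 2736 to 12258 in the other M-type cells. *Hes5* was 3.50 in S-type cell 4, 1.73 in M-type cell 5 and 0.567 in NR cell 2, with 0 in all other cells, and these values rest on 4, 4 and 1 reads. In a type with a single cell above 0 that cell stands apart by construction.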

How the results depend on the processing

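Of 272 values of the 15 ratios past 2-fold under other settings, 229 were past 2-fold in the same direction and 43 were not, 3 of them reversed. With the median over cells *Jag1* was -4.46 in T-type versus S-type and -2.64 in T-type versus M-type, and without both S-type cells with the most cell cycle reads *Id2* was 0.32 in T-type versus S-type. The number of members past 2-fold in T-type versus S-type was 4. It was 2 on the mean CPM, 2 on the CPM of the pooled reads, 1 with the median over cells, 2 without both T-type cells with the fewest genes and 2 without both S-type cells with the most cell cycle reads. In T-type versus NR it was 1, and 2 with the median over cells. Leaving out 1 cell gave 0 to 2 in T-type versus NR (0 without T-type cell 5 or NR cell 5, 2 without NR cell 3). It gave 1 to 4 in S-type versus NR (1 without NR cell 5, 4 without S-type cell 5) and 1 to 6 in S-type versus M-type (1 without S-type cell 6, 6 without M-type cell 4), where the count was 2 in both. The cause was not tested. Leaving out both T-type or both S-type cells was chosen after seeing the data. No paired analysis was possible because the labels number no replicates across types. *Hes5* rests on 9 reads, and T-type held the shallowest libraries. The part of depth in these values was not tested beyond the thinning.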
